A study of Mus musculus with 2 samples.

Results

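The genes described here are 9 transcription factors of the granulocyte and monocyte lineage, which were taken from the deposited expression values by gene symbol. They are Spi1, the C/EBP genes Cebpa, Cebpb, Cebpd, Cebpe and Cebpg, the interferon regulatory factor genes Irf4 and Irf8, and Gfi1. All 9 were found among the 23284 genes listed, Spi1 under its older symbol Sfpi1. The RNA-seq data hold a single WT and a single STAP-1 KO library, 1 of each, made from leukemic stem cells (LSCs) of mice with a BCR-ABL-driven disease that models chronic myeloid leukemia (CML). Differences between them therefore carry no replicate error, and p-values are not given. Donor cells of both groups were on the C57BL/6J background and differed by a targeted disruption of the gene for STAP-1, an adapter protein. In both groups LSK cells, which lack lineage markers and carry Sca-1 and c-Kit, had been transduced with human p210 BCR-ABL and green fluorescent protein by a retrovirus under its own promoter and transplanted into lethally irradiated congenic recipients. GFP+ CD45.2+ LSK cells were then sorted, and the RNA of both groups therefore comes from cells carrying the oncogene. The study sorted LSCs at day 11 after the first transplantation and used mice of 8 to 14 weeks. The number of mice behind each library is not given in the sources used here. Values are FPKM, read counts divided by transcript length and by library size, so that the levels of different genes can be compared.

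PU.1, the ETS factor encoded by Spi1, and C/EBPα act together at the branch from multipotent progenitors to granulocyte-monocyte progenitors, and they switch on receptors and granule proteins of the myeloid lineage. C/EBPε then drives the later, secondary granules of neutrophils, while C/EBPβ and C/EBPδ are induced by cytokines and serve in emergency granulopoiesis. IRF8 pairs with PU.1 on DNA to favor monocytes and dendritic cells, and GFI1 is a repressor that favors neutrophils and opposes monocytic genes. In human CML, BCR-ABL is known to lower C/EBPα protein and IRF8 expression.

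Of the 9 genes, Cebpa, Cebpd and Cebpe exceeded a 2-fold difference upwards in STAP-1 KO, and Irf8 exceeded it downwards. The call of Cebpd was lost with a pseudocount of 1 FPKM, at a log2 ratio of 0.83, and that of Cebpa with a floor of 1 FPKM, which its WT value did not reach. Spi1, Cebpb, Cebpg and Gfi1 did not reach a 2-fold difference, and Irf4 was near the limit of detection. The 2-fold cut-off is that of the study, and it was applied to genes with at least 0.1 FPKM in both libraries, which 8 of the 9 genes had. Among all 12507 such genes, 12.3% passed the cut-off upwards and 22.9% downwards, 35.2% in either direction. The 9 genes thus had 3 of 8 in the direction that was less frequent over all genes, a count too small to set them apart from the rest. Their median log2 ratio was 0.24, where the log2 ratio is log2((STAP-1 KO + 0.1)/(WT + 0.1)), and the median of the 12507 genes was -0.05. With a correction for length and GC content these medians were 0.60 and -0.0011. The pseudocount of 0.1 FPKM understates the ratio of low genes.

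The promoters of Cebpa and Irf8 are shown because, of the genes above the floor, these 2 differed most in opposite directions. Of the 9 genes 6 have an entry in the RefSeq promoter table of GRCm38.p6, with 8 start sites in all. The sequences are the 250 bases before the start, 5′ to 3′ on the coding strand, and Irf8 has a second start with no motif match. Capitals mark a TATA box (TATAAA) and, in Irf8, also the letters TTCNNNGAA of a STAT binding site and a CCAAT box read on the other strand.
Cebpa (chr7:35119043-35119292, plus strand): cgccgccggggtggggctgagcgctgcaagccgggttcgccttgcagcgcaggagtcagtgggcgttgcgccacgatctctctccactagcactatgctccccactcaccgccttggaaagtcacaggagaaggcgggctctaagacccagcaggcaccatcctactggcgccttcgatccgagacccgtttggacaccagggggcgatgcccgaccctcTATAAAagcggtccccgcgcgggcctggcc
Irf8 (chr8:120736108-120736357, plus strand): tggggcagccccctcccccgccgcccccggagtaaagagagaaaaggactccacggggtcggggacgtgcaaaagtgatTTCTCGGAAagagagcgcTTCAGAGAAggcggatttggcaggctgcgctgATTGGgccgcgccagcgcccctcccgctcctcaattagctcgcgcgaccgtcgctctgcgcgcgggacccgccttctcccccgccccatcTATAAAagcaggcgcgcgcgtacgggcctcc

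The TATA box starts 30 bases before the start of Cebpa and 31 bases before that of Irf8, and Irf4 also has one, 26 bases before its start. TATAAA is found on either strand in 12.4% of the 32851 RefSeq promoter windows of the same length. The Irf8 window holds the STAT letters 2 times, from 171 and from 153 bases before the start, and 7.02% of all windows hold them at least once. No other window of the 6 genes held them. The letters TTGCNNAA of a C/EBP site were found in 1 of the Gfi1 windows and in 9.56% of all windows, and CCAAT in Cebpg and Irf8 and in 33.8% of all. The PU.1 letters GAGGAAGT (2.44% of all windows) and the IRF response element, spaced GAAA repeats (2.98%), were not in these windows. Both strands were searched, and the marked matches did not overlap each other. The IRF and STAT letters can share GAA. A match describes the letters and does not show binding.

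**Figure D1:**
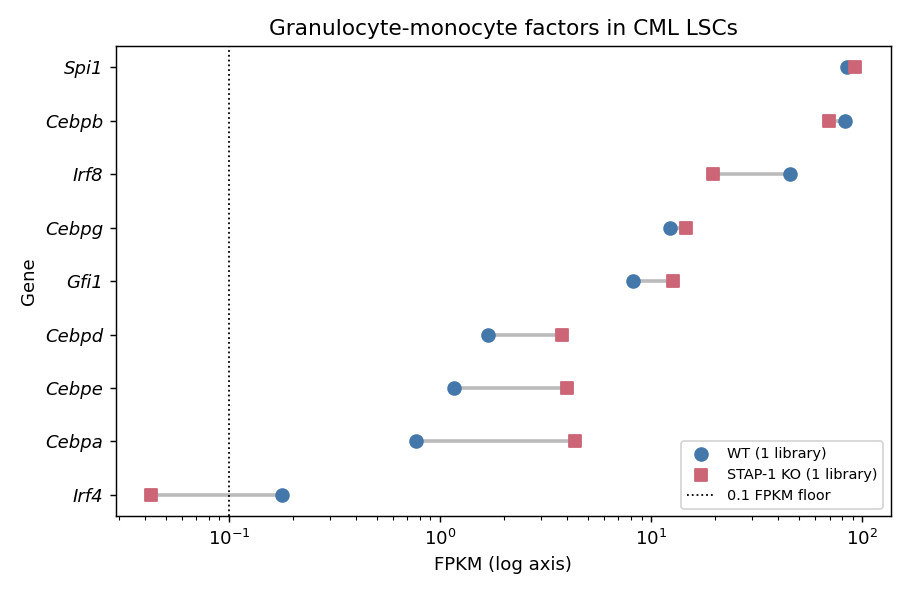
FPKM of the 9 factors in the WT library (circles) and the STAP-1 KO library (squares) on a log axis, with genes ordered by the WT value and the 0.1 FPKM floor as a dotted line. Spi1 and Cebpb lie highest in both libraries with small gaps, Cebpa, Cebpe and Cebpd lie further right in STAP-1 KO, Irf8 lies further left, and Irf4 crosses the floor.

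Spi1, on chromosome 2 from 91082390 to 91115756 on the plus strand, was the most abundant of the 9 in both libraries. It was measured at 84.5 FPKM in WT and 92.7 FPKM in STAP-1 KO, a ratio of 1.10 and a log2 ratio of 0.13. These are high levels, at percentile 90.5 and percentile 90.4 of the genes listed above 0. To judge counting error, the number of reads was worked out from the smallest steps in the FPKM values, with effective depths of 7490000 reads (WT) and 10480000 reads (STAP-1 KO). Spi1 then rests on about 1155 and 1773 reads, and the 95% interval of its ratio, from an exact binomial split of the reads, ran from 1.02 to 1.19. Such intervals cover the counting of reads only and neither the variation between mice nor amplification.

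Cebpa, on chromosome 7 from 35119293 to 35121928 on the plus strand, is a gene of 1 exon. It was measured at 0.768 FPKM in WT and 4.36 FPKM in STAP-1 KO, a ratio of 5.68. The values correspond to about 14 and 110 reads, and the counting interval of the ratio was 3.22 to 10.6. Its level moved from percentile 19.9 to percentile 43.6 of the genes listed above 0. Even in the STAP-1 KO library there was 21.3 times as much Spi1 as Cebpa, against 110 times in the WT library. The counting interval of the quotient of Cebpa to Spi1 was 0.00495 to 0.0153 in WT and 0.0384 to 0.0570 in STAP-1 KO.

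Cebpe, on chromosome 14 from 54710360 to 54712174 on the minus strand, was measured at 1.17 FPKM in WT and 3.99 FPKM in STAP-1 KO, a ratio of 3.42. About 9 and 43 reads stand behind these values, and the counting interval ran from 1.65 to 7.98, so that the 2-fold cut-off lies within the counting error. Cebpd, on chromosome 16 from 15887286 to 15891031 on the plus strand, was measured at 1.69 FPKM in WT and 3.78 FPKM in STAP-1 KO, a ratio of 2.23. This is just past the cut-off. The reads behind Cebpd depend on the transcript the authors used, and were about 45 and 140 with the GENCODE transcript of 3746 bases or 26.0 and 81.1 with the RefSeq span of 2260 bases. The counting interval was 1.58 to 3.19 with the first and 1.42 to 3.62 with the second.

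Cebpb and Cebpg were the abundant C/EBP genes. Cebpb, on chromosome 2 from 167688915 to 167690418 on the plus strand, was measured at 82.5 FPKM in WT and 69.7 FPKM in STAP-1 KO, a ratio of 0.845 with a counting interval of 0.770 to 0.932. It was the only C/EBP gene with a lower value in STAP-1 KO. Cebpg encodes a C/EBP protein without an activation domain that pairs with other bZIP factors such as ATF4. It lies 62720 bases from Cebpa on chromosome 7, on the minus strand, and had 12.3 FPKM in WT and 14.6 FPKM in STAP-1 KO (ratio 1.18, counting interval 1.05 to 1.34).

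The 5 C/EBP genes together summed to 98.5 FPKM (WT) and 96.5 FPKM (STAP-1 KO), a ratio of 0.979. The make-up of this sum differed. Cebpb held 83.8% of it in WT and 72.3% in STAP-1 KO, and Cebpg held 12.5% and 15.1%. Cebpa held 0.780% and 4.52%, Cebpd 1.72% and 3.91%, and Cebpe 1.18% and 4.13%. Counted as estimated reads, not divided by length, Cebpg held 32.4% and 35.7%, Cebpd 3.49% and 7.26% and Cebpe 0.701% and 2.24%. In FPKM, Cebpa, Cebpd and Cebpe together went from 3.68% to 12.6% of the C/EBP sum. Shares and quotients within a library do not depend on how the libraries were scaled against each other. Between Cebpe and Cebpa themselves, the quotient was 1.52 in WT (counting interval 0.579 to 3.76) and 0.914 in STAP-1 KO (0.627 to 1.31), so their order could not be told from counting error in either library.

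**Figure D2:**
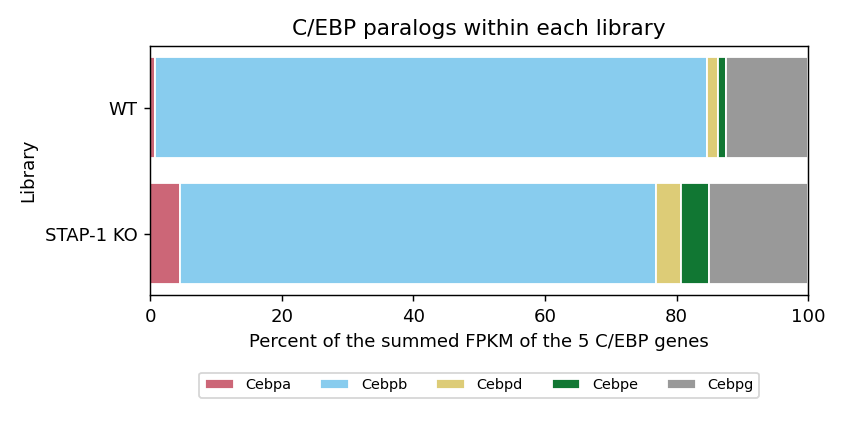
Percent of the summed FPKM of the 5 C/EBP genes held by each gene, with a bar for each library. Cebpb makes up 83.8% in WT and 72.3% in STAP-1 KO, while Cebpa widens from 0.780% to 4.52% and Cebpe from 1.18% to 4.13%.

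Irf8, on chromosome 8 from 120736358 to 120756694 on the plus strand, was measured at 45.4 FPKM in WT and 19.6 FPKM in STAP-1 KO. It was 2.31 times lower in STAP-1 KO, with about 896 and 542 reads and a counting interval of the STAP-1 KO to WT ratio from 0.389 to 0.483. The quotient of Irf8 to its DNA-binding partner Spi1 was 0.537 in WT and 0.212 in STAP-1 KO. Irf4, which encodes a close relative of IRF8 found in lymphocytes, macrophages and dendritic cells, had 0.179 FPKM in WT and 0.0427 FPKM in STAP-1 KO. These values correspond to 6 and 2 reads, and the counting interval of the STAP-1 KO to WT ratio ran from 0.0236 to 1.34, so no difference in Irf4 was detectable at this depth.

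Gfi1, on chromosome 5 from 107716657 to 107726036 on the minus strand, was measured at 8.19 FPKM in WT and 12.7 FPKM in STAP-1 KO, a ratio of 1.56 with about 163 and 354 reads and a counting interval of 1.29 to 1.88. This interval lies above 1 and below the 2-fold cut-off. The quotient of Gfi1 to Irf8, genes that oppose each other at the neutrophil and monocyte branch, was 0.181 in WT and 0.649 in STAP-1 KO, a difference of 3.60-fold. Of the 6 quotients of members formed, that of Cebpb to Cebpa differed most. It was 107 in WT (counting interval 63.7 to 197) and 15.99 in STAP-1 KO (13.1 to 19.7).

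The order of the 5 most abundant factors was the same in both libraries, with Spi1 first, followed by Cebpb, Irf8, Cebpg and Gfi1. Below them the order was Cebpd, Cebpe, Cebpa in WT and Cebpa, Cebpe, Cebpd in STAP-1 KO, and Irf4 was last in both. The 3 genes past the cut-off upwards were therefore those with the lowest WT values apart from Irf4. In STAP-1 KO, Cebpa, Cebpe and Cebpd lay close, at 4.36, 3.99 and 3.78 FPKM on about 110, 43 and 140 reads. The order of Cebpe and Cebpa was within counting error in both libraries, so a reversal of order is not shown. Among the 3123 genes from 0.5 to 5 FPKM in WT and above the floor in both, 15.5% were at least 2-fold higher and 29.9% at least 2-fold lower.

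**Figure D3:**
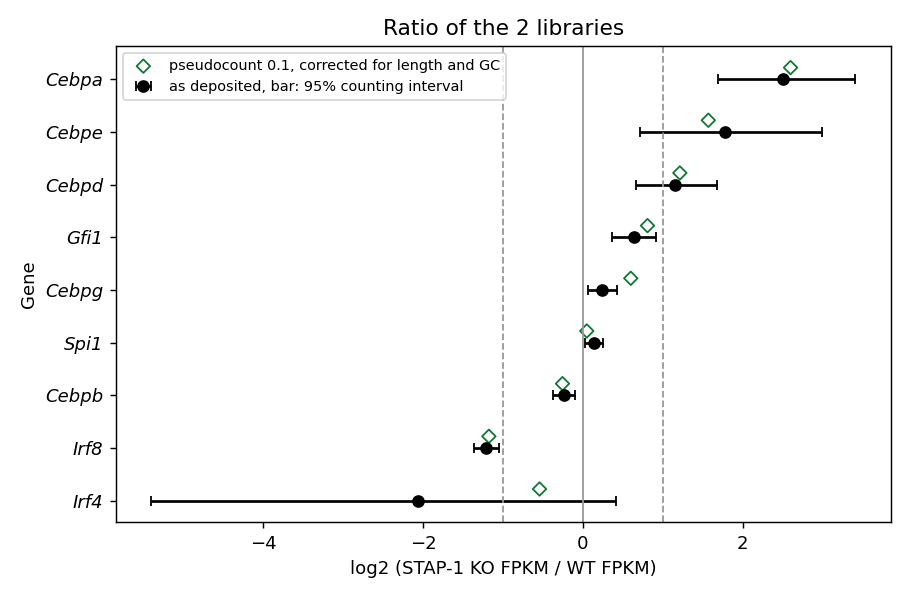
Log2 ratio of the STAP-1 KO to the WT library for each factor without a pseudocount (filled circles, bars for the 95% counting interval) and with a pseudocount of 0.1 corrected for length and GC (open diamonds), with dashed lines at the 2-fold cut-off. Cebpa lies beyond the line with its whole interval, those of Cebpe and Cebpd cross it, Irf8 lies below the lower line, and the bar of Irf4 spans 0.

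Some checks of the libraries bear on these values. Stap1, the targeted gene, had 61.95 FPKM in WT and 0.309 FPKM in STAP-1 KO. Of the markers used in the sort, Kit had 468 FPKM in WT and 30.1 FPKM in STAP-1 KO and Ly6a, which encodes Sca-1, 285 and 106 FPKM. Of all 10 LSK and stem cell markers, 4 were lower and 1 was higher, and with the length and GC correction 2 were lower and 1 higher. They summed to 1582 and 1262 FPKM, and without Cd48 (525 and 907 FPKM) to 1057 and 355 FPKM. Long-term stem cells lack CD48, but also CD34, whose gene (281 and 194 FPKM) stayed in this sum. Beside Kit and Ly6a, the lower markers as deposited were Mecom (4.08 and 1.56 FPKM) and Hlf (0.318 and 0.140 FPKM). The higher one was Slamf1 (3.39 and 8.67 FPKM), and Procr (2.98 and 5.45 FPKM) did not reach 2-fold. The 10 mast cell and basophil markers summed to 51462 FPKM in WT and 5276 FPKM in STAP-1 KO, and 9 of them were at least 2-fold lower. The 7 macrophage markers summed to 132 and 34.4 FPKM (2 lower, none higher), and the 7 eosinophil markers to 11.1 and 79.1 FPKM (3 higher, 1 lower). The 7 erythroid markers summed to 851 and 471 FPKM (2 lower), the 7 megakaryocyte markers to 218 and 137 FPKM (1 higher, 3 lower), the 7 T lymphoid markers to 24.8 and 69.3 FPKM (4 higher, 1 lower) and the 7 B lymphoid markers to 3.78 and 19.2 FPKM (2 higher). The defining B cell genes Pax5 and Ebf1 were listed at 0 in both, and no marker of the other lists was at 0 in both. In bulk RNA, a different share of a cell type and a different amount of RNA per cell cannot be told apart, and the part of these differences in the values of the 9 factors was not tested.

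The ratio of the libraries fell with transcript length, with a Spearman correlation of -0.37 across the 10856 genes whose mean reached 1 FPKM. These are genes within 1 pair of libraries and not replicates. The factors have transcripts of 1241 bases (Cebpe) to 4764 bases (Irf4). After the median of genes of like length and GC content was taken off, the log2 ratio was 2.60 for Cebpa (2.36 before), 1.57 for Cebpe (1.69 before), 1.21 for Cebpd (1.11 before), 0.81 for Gfi1 (0.63 before) and 0.60 for Cebpg (0.24 before). It was 0.05 for Spi1, -0.26 for Cebpb and -1.18 for Irf8. The same 4 genes were past 2-fold before and after.

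**Figure D4:**
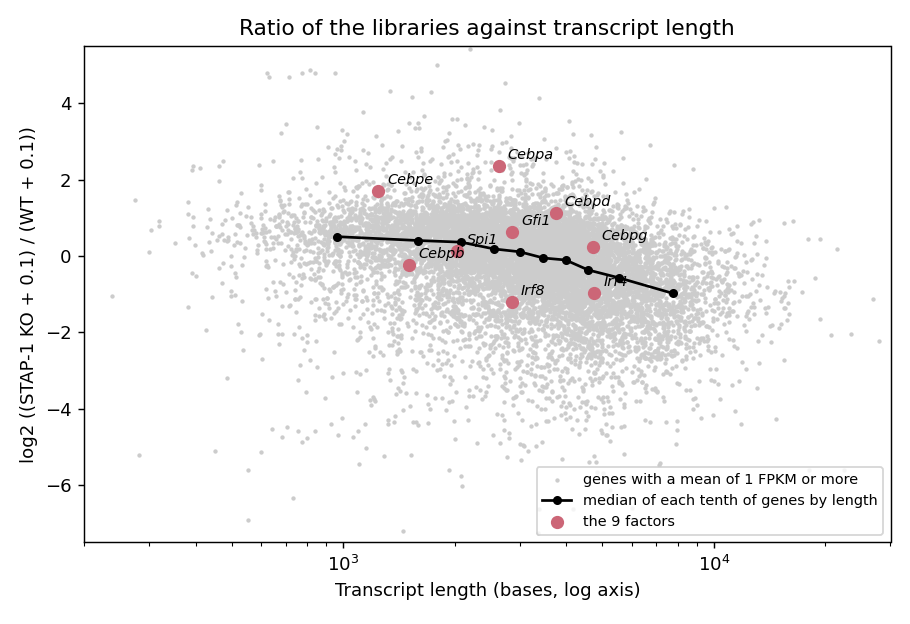
Log2 ratio of the STAP-1 KO to the WT library against the length of the transcript in bases (log axis) for genes whose mean reached 1 FPKM (grey), with the medians of 10 groups of genes of increasing length (black) and the 9 factors (red). The median falls from 0.50 in the group of shortest transcripts to -0.98 in the longest, Cebpa, Cebpe and Cebpd lie above it and Irf8 below it.

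Neighbouring genes were read for shared changes at the loci. Within 100 kb of Cebpa and Cebpg, the peptidase gene Pepd had 43.1 and 58.4 FPKM, the WT value first, and the other listed neighbours, Slc7a10 and Lrp3, were at or near 0. Of the 8 listed neighbours of Cebpe, 5 had higher values in STAP-1 KO, 2 had lower values and 1 was listed at 0 in both. The 5 include Cdh24 (0 and 0.152 FPKM) and 4930579G18Rik (0.108 and 0.236 FPKM), near the floor, and the microRNA gene Mir686. Over all genes above the floor, 5987 of 12507 had a log2 ratio above 0. The neighbour of Cebpe that differed most was the amino acid transporter gene Slc7a8, 10035 bases away, with 298 FPKM in WT and 16.1 FPKM in STAP-1 KO. All 3 listed neighbours of Irf8, among them Emc8 (12.1 and 20.6 FPKM) and Cox4i1 (645 and 942 FPKM), had higher values in STAP-1 KO, opposite to Irf8. Elsewhere, 3 neighbours of Spi1 had higher values and 6 lower, 2 of Cebpd higher and 1 lower, and 1 of Gfi1 higher and 2 lower. Cebpb and Irf4 had 2 neighbours each with lower values and none with higher ones. The Cebpb transcript shares 312 of its 1504 bases with exons of Tmem189 on the other strand (52.4 and 31.1 FPKM), and Cebpd shares 562 of 3746 bases with Spidr on the other strand (12.3 and 18.4 FPKM). The counting is not stated to use strand, so reads in the shared bases cannot be told apart, and the values of Cebpb and Cebpd are uncertain to that extent.

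The partners and relatives of the factors were described by lists. Of 11 genes listed as C/EBP partners and regulators, 10 were above the floor in both libraries, with a median log2 ratio of -0.54. At least 2-fold lower were 4 and none was higher, beside 22.9% lower and 12.3% higher over all genes. Of these 4, only Trib2 is described here by an action on a C/EBP protein. The lower genes were Batf (149 FPKM in WT and 64.4 FPKM in STAP-1 KO) and Batf3 (5.56 and 0.569 FPKM), AP-1 family factors that pair with IRF4 and IRF8, the bZIP repressor gene Nfil3 (35.1 and 13.3 FPKM) and Trib2 (3.61 and 1.10 FPKM). TRIB2 is a pseudokinase that brings C/EBPα to the ubiquitin ligase COP1 for degradation. Its relative Trib1 had 3.77 and 2.90 FPKM, Cop1 had 3.85 and 4.06 FPKM and Atf4 had 114 and 177 FPKM, none of them past the cut-off. Ddit3, which encodes the C/EBP inhibitor CHOP, had 59.0 and 36.2 FPKM, not past the cut-off. With the length and GC correction its log2 ratio was -1.30, and 5 genes of the list were then lower.

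Of the 9 PU.1 and IRF relatives, 2 were at least 2-fold higher, 3 at least 2-fold lower and 3 not past the cut-off, with a median log2 ratio of -0.25. With a floor of 1 FPKM 2 were higher and 1 lower, and the median was 0.20. The PU.1 relative Spic had 18.9 FPKM in WT and 0.542 FPKM in STAP-1 KO, whereas Spib was listed at 0 in both. Irf5 (36.1 and 12.4 FPKM) was lower, and Irf7 (21.1 and 46.5 FPKM) and Irf1 (29.4 and 59.6 FPKM), which act in the interferon response, were higher. The ratio of Irf1 was 2.03, and with the length and GC correction its log2 ratio of 0.86 was not past the cut-off, which left Irf7 as the higher one. For Gfi1, the relative Gfi1b, which acts in erythroid and megakaryocytic cells, had 55.8 and 59.4 FPKM and remained several times more abundant than Gfi1 in both libraries. Kdm1a, the gene of the histone demethylase that GFI1 recruits, had 47.8 and 51.3 FPKM, Rcor1 had 60.3 and 29.1 FPKM and Hdac2 had 117 and 261 FPKM, and of the 7 genes of this list 1 was higher and 2 were lower. With the length and GC correction, none of these 3 was past 2-fold, with log2 ratios of -0.51 for Rcor1, -0.51 for Ehmt2 and 0.87 for Hdac2.

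Of 13 other myeloid fate factors, 9 were at least 2-fold lower and none higher, with a median log2 ratio of -1.96 over the 12 above the floor. The median was -1.27 with a pseudocount of 1 FPKM and -1.54 with the length and GC correction, which kept 9 genes past the cut-off. The monocytic factor genes Egr1 (575 FPKM in WT and 121 FPKM in STAP-1 KO) and Egr2 (52.2 and 2.91 FPKM), Id2 (896 and 94.5 FPKM), which encodes an inhibitor of helix-loop-helix factors, and the retinoic acid receptor gene Rara (29.9 and 2.52 FPKM) were all lower. The other 3, factors of early progenitors, did not reach 2-fold, with Myb at 54.6 and 95.2 FPKM, Runx1 at 22.8 and 12.3 FPKM and Cbfb, the gene of its DNA-binding partner, at 61.1 and 97.1 FPKM. Of 7 genes that GFI1 is known to repress, 4 were at least 2-fold lower and 1 was higher. With a floor of 1 FPKM 0 were higher, and with the length and GC correction 2 were. The mast cell and basophil markers (51462 and 5276 FPKM) moved with this list, and their part in it was not tested. Csf1, the macrophage growth factor gene, had 369 and 3.66 FPKM and Cdkn1a 217 and 66.4 FPKM, and Egr2 and Id2 also belong to this list. Hoxa9 had 0.452 and 2.73 FPKM and was the higher one.

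The genes that these factors act on differed by group. All 7 genes of the primary granule list passed 2-fold upwards in STAP-1 KO, and their median log2 ratio was 2.99. With the length and GC correction Lyz2 (35.2 and 92.05 FPKM) no longer passed, at 0.92, and 6 of 7 did. The list holds granule proteins of promyelocytes, among them targets of C/EBPα, PU.1 and MYB, and also Ms4a3 and Igsf6, which encode membrane proteins of myeloid cells. Mpo had 248 FPKM in WT and 1973 FPKM in STAP-1 KO, Prtn3 57.4 and 525 FPKM, Ctsg 104 and 841 FPKM and Ms4a3 41.5 and 460 FPKM. Of 12 genes listed for secondary and tertiary granules, among them C/EBPε targets, 8 were at least 2-fold lower and 1 was higher. The median was -1.85 over the 11 above the floor, beside Cebpe at 3.42 times higher. Dependence of each listed gene on C/EBPε was not tested. Lcn2 (17.8 and 28.7 FPKM) and S100a8 (204 and 108 FPKM) did not pass the cut-off. Ngp had 52.3 and 9.72 FPKM, Camp 18.8 and 5.13 FPKM, Chil3 54.6 and 2.58 FPKM and S100a9 104 and 30.04 FPKM. Cybb (2.26 and 4.56 FPKM), a subunit of the phagocyte oxidase, was the higher one. The earlier granule list and the later one therefore lay on opposite sides of 0. Over the same pair of libraries the mast cell and basophil markers went from 51462 to 5276 FPKM and the eosinophil markers from 11.1 to 79.1 FPKM, and their part in the granule gene values was not tested.

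Among 9 receptor and surface genes of the lineage, 3 were at least 2-fold higher, 2 at least 2-fold lower and 3 not past the cut-off. Csf3r, the G-CSF receptor gene and a target of C/EBPα, had 1.51 FPKM in WT and 13.3 FPKM in STAP-1 KO. Csf1r, the M-CSF receptor gene and a target of PU.1, had 1.56 and 5.31 FPKM. Itgb2 (175 and 34.2 FPKM) and Tlr4 (11.99 and 2.39 FPKM) were lower. Of 10 monocyte and dendritic genes, 5 were at least 2-fold lower and 2 higher, with a median log2 ratio of -0.72, beside the lower Irf8. With a floor of 1 FPKM, which leaves out Ciita, the median was -0.08. The class II genes Cd74 (963 and 226 FPKM) and Ciita (2.49 and 0.215 FPKM), the protease gene Ctss (67.9 and 18.2 FPKM), Cst3 (1421 and 556 FPKM) and Ccr2 (41.8 and 10.3 FPKM) were lower, whereas Ly6c2 (20.5 and 97.96 FPKM) and Ms4a6c (3.83 and 15.5 FPKM) were higher. Cst3 and Ms4a6c were named after their values were seen. Of the 7 macrophage markers, Cd68 (95.7 and 26.3 FPKM) and Adgre1 (30.7 and 4.34 FPKM) were lower beside this list, while C1qa, C1qb and C1qc did not pass the cut-off, and the part of such cells in these values was not tested.

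**Figure D5:**
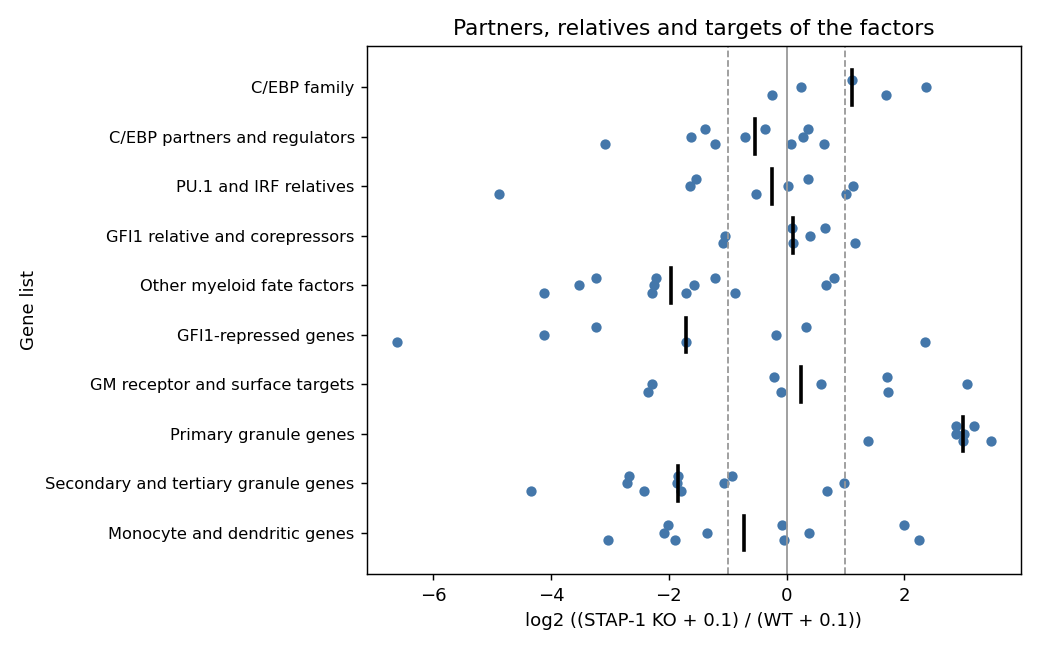
Log2 ratio of the STAP-1 KO to the WT library for each gene of 10 lists that had at least 0.1 FPKM in both libraries (points, spread vertically for sight only), with the median of each list as a black bar and dashed lines at the 2-fold cut-off. The genes of the primary granule list all lie above 1 with a median of 2.99, and the secondary and tertiary granule genes center on -1.85.

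The genes of the lists most like each factor were found by the distance between their log2 levels in the 2 libraries, over 117 listed genes whose mean reached 1 FPKM. With only 2 libraries, this is likeness of level and ratio and no more. Cd14, a monocyte receptor gene (1.14 and 4.002 FPKM), was nearest to both Cebpe (distance 0.03) and Cebpa (distance 0.53), and Csf1r was the next nearest to Cebpe (distance 0.57). Nearest to Irf8 were Ctss (distance 0.59) and Nfil3 (distance 0.67), nearest to Spi1 the erythroid factor gene Klf1 (distance 0.36), nearest to Gfi1 Trib3 (distance 0.47) and nearest to Cebpb the basophil protease gene Prss34 (distance 0.37). Cd3g was nearest to Cebpd (distance 0.42) and Csf2ra to Cebpg (distance 0.34). Irf4 lies below the level required of the compared genes, so genes at its level were not compared.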

How the data were processed

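RNA of sorted WT and STAP-1 KO CML LSCs was turned into cDNA by SMART-Seq v4, a full-length method for few cells, and read from a single end over 75 bases. The authors mapped reads to mm10 with TopHat2 2.0.13 and Bowtie2 2.2.3 and deposited FPKM values from Cufflinks 2.2.1 (its Cuffnorm tool), with SAMtools 0.1.19 named in the submitters' processing notes and another version in the methods. The annotation and library scaling are not given in the sources used here.

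From the FPKM, ratios, counts past the cut-off and list medians were computed in Python 3.11.15 (pandas 2.3.3, numpy 2.4.6, scipy 1.17.1). No test was run, since each genotype has 1 library. Symbols were matched to GENCODE M21 (GRCm38, the same assembly as mm10), 20911 as written, 1887 through an older symbol and 486 not at all. Effective depths were fitted to low FPKM values of genes with 1 transcript, with 210 bases taken off each length, which placed 49.1% of 424 values (WT) and 53.1% of 422 (STAP-1 KO) no more than 0.02 from a whole read, against 4% for evenly spread values. Reads behind a factor use its longest coding transcript. The 2-fold calls, the depth fit and the length correction were run on simulated data. There the 210 bases were set in advance and given to the fit, and all values lay on whole reads. The choice of 210 bases was therefore not tested. Promoters come from RefSeq.

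The factors, lists and motifs were chosen with earlier results of these data known, and the motifs also with the promoters in view. Named genes are the 9 factors, Stap1, up to 4 genes per list that differed most when 1 FPKM was added to both values, and the nearest 2 listed genes of each factor; others are named to show genes of known role beside a factor, or as the rest of a small count, and were chosen after their values were seen. Values of some listed genes are not reported here.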

Additional observations from a re-analysis of the deposited data

How the results depend on the processing

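All values compare 1 library with 1 library, so genotype and differences between mice, sorts or preparations cannot be told apart. No paired analysis was possible because each group has 1 library. The counts of factors at least 2-fold higher (3) and lower (1) stayed within 1.5 times under 3 scalings of the libraries, a floor of 1 FPKM (which drops Cebpa, leaving 2 higher, against 10.6% of all genes), a pseudocount of 1 FPKM in place of the floor (which drops Cebpd, leaving 2 higher, against 4.59%), a 1.5-fold cut-off (which adds Gfi1, with 25.6% of all genes higher and 32.8% lower) and the correction for length and GC content. With a 4-fold cut-off 1 factor, Cebpa, was higher and 0 were lower, against 2.4% and 8.56% of all genes. With no floor, and with the floor required in only 1 library (added after seeing the data), 2 factors were lower, since Irf4 joined Irf8, against 24.5% and 26.4% of all genes. The median log2 ratio of the 9 factors, 0.24, was 0.60 after the length and GC correction. As shares of estimated reads instead of FPKM, which favors long transcripts, Cebpb held 62.3% of the C/EBP sum in WT and 49.1% in STAP-1 KO, Cebpg 32.4% and 35.7%, Cebpd 3.49% and 7.26% and Cebpe 0.701% and 2.24%, and Cebpa held 5.73% in STAP-1 KO. Cebpa, Cebpd and Cebpe still held larger shares in STAP-1 KO. With a floor of 1 FPKM the median of the PU.1 and IRF relatives turned from -0.25 to 0.20 and that of the receptor and surface genes from 0.24 to -0.10, as fewer genes were counted, and that of the monocyte and dendritic genes went from -0.72 to -0.08. The length and GC correction, applied to the lists after seeing the data, turned no list median but raised that of the receptor and surface genes to 0.86, with 4 higher in place of 3 as Il6ra joined. Depth limits Irf4, Cebpe and Cebpa most.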
